A study of Danio rerio with 14 samples.

Results

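The genes described here are 8 enzymes of serine, asparagine and folate-linked carbon metabolism, found by their symbols in the raw count table: phgdh, psat1, psph, asns, shmt1, shmt2, mthfd2 and mthfd1l. They are 8 of 36109 genes in the table, and all 8 passed the filter on low counts. RNA of zebrafish embryos was sequenced in 4 groups: siblings and mttp knockout mutants at 24 hours post fertilization (hpf), with 4 libraries each, and at 48 hpf, with 3 libraries each. The labels give the mutants a CRISPR/Cas9-mediated knockout and the siblings no treatment. They do not give the siblings' genotype at mttp, the allele, the number of embryos per library or separate clutches, so p-values measure only the spread between these libraries. Each stage is its own labelled batch, and their effects cannot be told apart. In RNA of embryos, fewer cells of a type and less RNA per cell cannot be told apart either.

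Serine is made in the cytosol from a glycolytic intermediate: phgdh oxidizes it, psat1 adds an amino group taken from glutamate, and psph removes the phosphate. Serine hydroxymethyltransferases split serine into glycine and a one-carbon unit carried on folate, shmt1 in the cytosol and shmt2 in mitochondria. In mitochondria mthfd2 oxidizes that unit and mthfd1l releases it as formate, which feeds purine and thymidylate synthesis in the cytosol. The enzyme made by asns forms asparagine from aspartate. In mammals the transcription factor ATF4, made when amino acids are short or the endoplasmic reticulum is stressed, switches on genes of this set. The gene mttp encodes the protein that loads lipid onto apolipoprotein B for export from the yolk.

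Library totals ranged from 29422983 to 46534187 counts, and 1 count was worth at most 0.0327 CPM (counts scaled to a common library size, with TMM factors). RNA of mttp was lower in every mutant library than in every sibling library of its stage: it spanned 7.90 to 11.3 CPM in mutants and 67.3 to 79.6 CPM in siblings at 24 hpf. At 48 hpf it spanned 6.23 to 11.4 CPM in mutants and 19.3 to 38.5 CPM in siblings. The mitochondrially encoded share of counts was lowest in sibling replicate 3 at 48 hpf (0.696%), which was also the deepest library and had the fewest genes detected (23327), and in sibling replicate 2 at 24 hpf (0.847%). The other 12 libraries spanned 1.27% to 1.97%. Marker genes of neurons, skeletal muscle, epidermis, erythrocytes, lens and yolk syncytial layer were all detected in each of the 4 groups, for libraries labelled as embryo.

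RNA of the cytosolic serine genes and of asns was more abundant in 48 hpf mutants than in their siblings, whereas the 3 mitochondrial folate genes were not called. Of the 8 genes 5 were called higher (phgdh, psat1, psph, shmt1 and asns) and 0 lower, at an adjusted p under 0.05 in edgeR's quasi-likelihood test over all genes. In that comparison 6.06% of the 24424 genes tested were called, 4.26% higher and 1.80% lower. At an unadjusted p under 0.05 6 of the 8 were higher and 0 lower, and DESeq2 and limma-voom each called 5 higher and 0 lower. Shares of all genes for these counts are not given here. Mthfd2, which passed only without adjustment, ranked 3662 of 24424 genes by p. The median log2 fold change of the 8 genes was 0.58, beside -0.0046 for all genes tested. The genes were chosen with earlier results of these data known, so this count is a description.

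Psat1, the aminotransferase of the pathway, had the greatest log2 change of the 8 at 48 hpf. It measured 185, 149 and 141 CPM in mutant replicates 1, 2 and 3, against 56.3, 70.7 and 51.7 CPM in sibling replicates 1, 2 and 3. The lowest mutant library lay far above the highest sibling library. The log2 fold change was 1.41 ± 0.13 (SE of the fit), a 2.66-fold rise with adjusted p = 4.01e-06.

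Phgdh, which takes the committed step into serine synthesis, measured 189, 160.3 and 166 CPM in the mutants at 48 hpf. The siblings measured 82.7, 96.9 and 94.7 CPM, so the lowest mutant library lay well above the highest sibling library. The log2 fold change was 0.91 ± 0.096, a 1.88-fold rise (adjusted p = 1.19e-05).

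Psph, the phosphatase that completes serine synthesis, measured 27.1, 24.3 and 30.5 CPM in mutants and 18.1, 18.5 and 17.5 CPM in siblings at 48 hpf. The 3 sibling libraries lay within 1 CPM of each other and below all mutants, with a log2 fold change of 0.598 ± 0.11, or 1.51-fold (adjusted p = 0.00167). That call ended in a fit of this stage alone with the replicate number as a block (adjusted p = 0.0557). In the RefSeq annotation of GRCz12tu the span of psph overlaps that of nipsnap2, and the library kit does not mark strand. The counts themselves were made on GRCz11. The log2 fold change of nipsnap2 at 48 hpf was -0.11 ± 0.15 (adjusted p = 0.775). Whether shared reads entered the psph counts was not tested.

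Shmt1, the cytosolic hydroxymethyltransferase, measured 66.5, 60.5 and 71.04 CPM in mutants and 44.8, 45.7 and 44.6 CPM in siblings at 48 hpf. The groups did not overlap, and the log2 fold change was 0.55 ± 0.093, or 1.47-fold (adjusted p = 0.00116). Asns, asparagine synthetase, measured 63.6, 64.0 and 67.97 CPM in mutants and 33.1, 33.3 and 49.1 CPM in siblings. The highest sibling library was replicate 3, which stood apart in depth and mitochondrial share. The log2 fold change of asns was 0.76 ± 0.14, or 1.69-fold (adjusted p = 0.00215), and 0.97 (adjusted p = 4.50e-05) without that library.

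The 3 mitochondrial folate genes gave smaller values at 48 hpf. Shmt2 measured 89.4, 71.02 and 81.3 CPM in mutants and 72.6, 76.0 and 104 CPM in siblings, with overlapping groups. In the GRCz12tu annotation the span of shmt2 overlaps those of 2 genes without a row under their names in the count table. Its log2 fold change was -0.063 (95% interval -0.33 to 0.21, adjusted p = 0.858), and it was 0.12 without sibling replicate 3 and 0.030 without mutant replicate 2. Mthfd1l, the formate-releasing ligase, measured 161, 133 and 139.7 CPM in mutants and 137, 130.4 and 173 CPM in siblings. Its log2 fold change was -0.021 (95% interval -0.32 to 0.27, adjusted p = 0.963), and it lay above 0 without sibling replicate 3 (0.11), mutant replicate 2 (0.047) or mutant replicate 3 (0.019), and with library size only (0.016).

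Mthfd2, the mitochondrial dehydrogenase, measured 95.98, 83.8 and 83.1 CPM in mutants and 82.2, 66.7 and 74.3 CPM in siblings at 48 hpf. All mutant libraries lay above all sibling libraries, an arrangement that 12.0% of the genes tested showed at this stage, with 22.5% not overlapping in either direction. The log2 fold change of 0.24 (95% interval 0.019 to 0.45) was not called after adjustment (adjusted p = 0.230). Differences between genes were not tested.

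**Figure D1:**
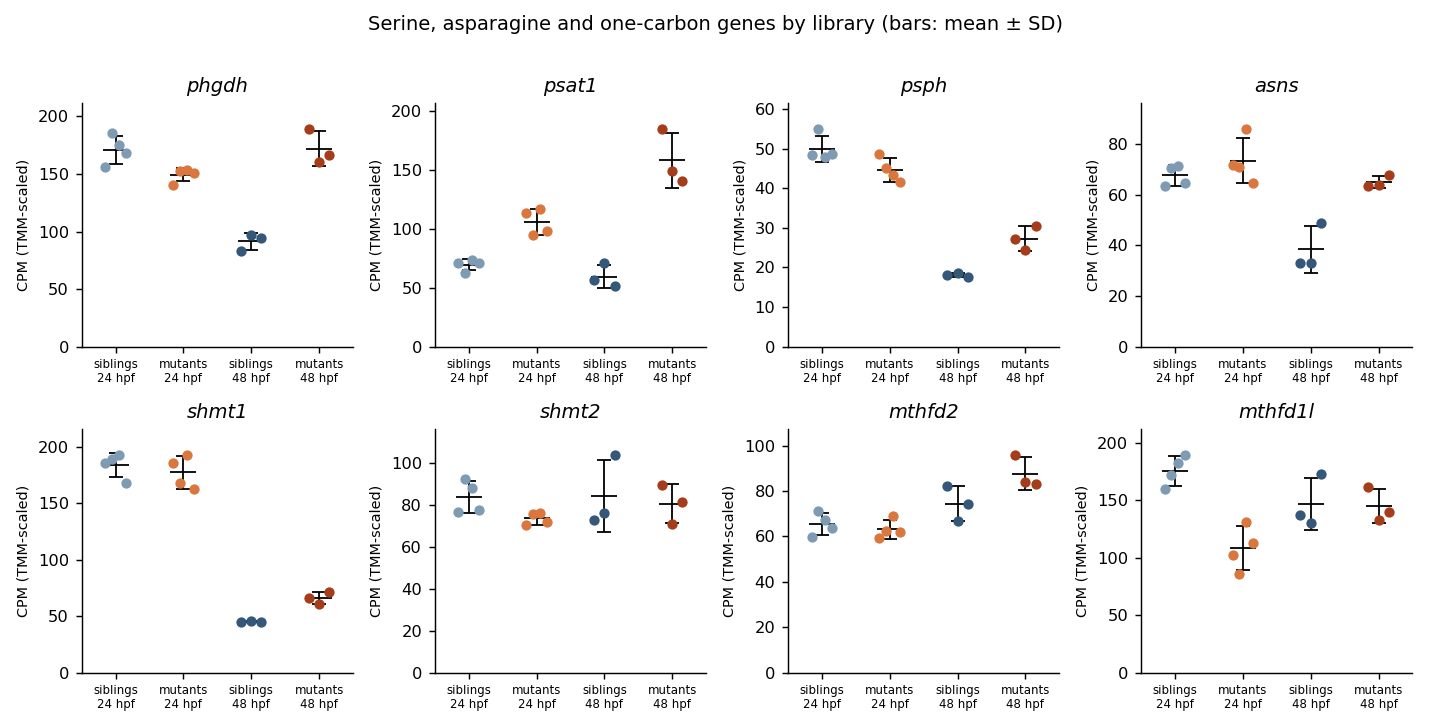
CPM (TMM-scaled, linear axis from 0) of each of the 8 genes in all 14 libraries, by group; points are libraries, horizontal marks are means and bars are ± SD. At 48 hpf phgdh spans 160.3 to 189 CPM in mutants and 82.7 to 96.9 CPM in siblings, whereas shmt2 and mthfd1l overlap between these groups.

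At 24 hpf the picture differed: psat1 was the single gene called higher and mthfd1l the single gene called lower, and the other 6 were not called. Over all genes tested 3.82% were called at this stage, 1.50% higher and 2.33% lower. DESeq2 and limma-voom also called 1 of the 8 higher and 1 lower. The median log2 fold change of the 8 genes was -0.11, beside -0.0028 for all genes. Scaling by library size only moved the median of all genes by 0.10 at this stage, turned the uncalled changes of shmt1 and mthfd2 from below to above 0, and left both calls in place. Leaving out mutant replicate 4 also turned shmt1 (0.0049).

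Psat1 measured 113, 94.7, 117 and 98.5 CPM in mutant replicates 1 to 4 and 71.1, 62.5, 73.3 and 71.1 CPM in sibling replicates 1 to 4 at 24 hpf. No library overlapped between the groups, and the log2 fold change was 0.61 ± 0.11, a 1.52-fold rise with adjusted p = 0.00412. Mthfd1l measured 103, 86.2, 131 and 113 CPM in mutants and 159, 172, 182 and 189 CPM in siblings. The highest mutant library lay below the lowest sibling library, and mthfd1l fell by 0.70 on the log2 scale (SE 0.12, adjusted p = 0.00242).

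The remaining 6 genes spanned log2 fold changes from -0.19 to 0.12 at 24 hpf. Phgdh measured 141, 152, 154 and 151 CPM in mutants and 156, 185, 175 and 168 CPM in siblings. All mutant libraries were below all sibling libraries, as for 8.59% of the genes tested, but the log2 fold change of -0.19 ± 0.082 was not called (adjusted p = 0.242). Shmt2 had the same arrangement (70.3 to 76.2 CPM in mutants, 76.5 to 92.3 CPM in siblings) and was not called (-0.19 ± 0.11, adjusted p = 0.455). Both separations rest on the TMM factors, which spanned 0.915 to 0.991 in siblings and 1.03 to 1.04 in mutants at 24 hpf. By counts over library totals alone, mutant replicate 3 lay above sibling replicate 1 for both genes, so the groups overlapped. Psph, shmt1, mthfd2 and asns overlapped between the groups, with adjusted p-values from 0.407 to 0.872.

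Summed levels of some marker lists did not overlap between genotypes, and their part in these results was not tested. Of single genes 13.6% did not overlap at 24 hpf and 22.5% at 48 hpf, but the share for sums of genes was not counted. The summed CPM of 15 yolk syncytial layer genes spanned 10464 to 13451 in mutants and 15087 to 17958 in siblings at 24 hpf, with none of the 15 at 0. That of 20 cell cycle genes spanned 5907 to 6169 in mutants and 6659 to 8038 in siblings. In edgeR's test 1 of 14 tested yolk syncytial layer genes was called higher and 6 lower at 24 hpf. Of 20 cell cycle genes 1 was called lower (11 at an unadjusted p under 0.05). By edgeR's unadjusted p, phgdh with 0.031 ranked 3158 of 24424 genes at 24 hpf, and mthfd2 with 0.035 ranked 3662 at 48 hpf. Over all genes tested 1.50% were called higher and 2.33% lower at 24 hpf. The yolk syncytial layer list and its sum include mttp, the knocked-out gene, which was among those called lower at both stages. At 48 hpf the yolk syncytial layer and cell cycle sums overlapped between genotypes, but 4 of the 14 yolk syncytial layer genes were called lower and 3 higher. Over all genes tested 1.80% were called lower and 4.26% higher at 48 hpf. There the 6 skeletal muscle genes summed to 34201 to 39997 CPM in mutants and 42869 to 54383 CPM in siblings, with 0 of the 6 called by edgeR and 4 lower at an unadjusted p under 0.05. The 6 lens genes summed to 1171 to 1234 CPM in mutants and 1314 to 1559 CPM in siblings at 48 hpf, with 0 of the 6 called and 1 lower at an unadjusted p under 0.05. The 6 epidermis genes summed to 25981 to 27574 CPM in mutants and 27855 to 33700.4 CPM in siblings at 24 hpf, with 1 of the 6 called lower. Without the TMM factors these epidermis sums overlapped. The neuron and erythrocyte sums overlapped between genotypes at both stages, as did the muscle and lens sums at 24 hpf and the epidermis sum at 48 hpf.

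The change of the mutant effect between stages was tested as the log2 difference, 48 minus 24 hpf. It was called above 0 for phgdh, psat1, psph and shmt1 and below 0 for none of the 8, where 3.17% of all genes tested were called, 2.43% above 0 and 0.737% below. At an unadjusted p under 0.05 6 were above 0 and 0 below, DESeq2 called 6 and limma-voom 5 above 0, and neither called 1 below. By edgeR's unadjusted p mthfd2, at 0.0505 just over that threshold, ranked 3860 of 24424 genes. DESeq2 also called more of all genes than edgeR for this difference, as given in the closing section. For phgdh the difference was 1.104 ± 0.13 (adjusted p = 8.39e-05), as it went from a lower value in mutants that was not called to a called rise. For psat1, called higher at both stages, it was 0.80 ± 0.17 (adjusted p = 0.0144). That call ended without mutant replicate 2 (0.0526) or mutant replicate 4 (0.0608) at 24 hpf, and with library size only (0.0562). For psph it was 0.76 ± 0.14 (adjusted p = 0.00497) and for shmt1 0.60 ± 0.12 (adjusted p = 0.0107).

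Mthfd1l (0.68 ± 0.19, adjusted p = 0.0565) and asns (0.64 ± 0.18, adjusted p = 0.0672) came close to the threshold for this difference. Both passed it without sibling replicate 3 at 48 hpf (adjusted p = 0.0123 and 0.00180), and mthfd1l also without mutant replicate 3 at 24 hpf (0.0317). DESeq2 called both (0.0167 and 0.0263), and limma-voom called mthfd1l (0.0463). Both were also called in the fit with the replicate number as a block. For mthfd2 the difference was 0.29 ± 0.14 (adjusted p = 0.319) and for shmt2 0.12 ± 0.17 (adjusted p = 0.818).

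From 24 to 48 hpf phgdh, psph, shmt1 and asns fell in siblings, whereas in mutants psph and shmt1 were called lower and phgdh and asns were not called. These comparisons share their groups with those above, so they show the same libraries from another side. In siblings 4 of the 8 fell and 0 rose, in a comparison where 52.4% of all genes tested were called, 26.3% lower and 26.2% higher. At an unadjusted p under 0.05 0 of the 8 rose, and the same held for the calls of DESeq2 and limma-voom. In mutants 3 rose (psat1, mthfd2 and mthfd1l) and 2 fell (psph and shmt1), where 43.2% of all genes were called, 23.6% higher and 19.6% lower. The rise of mthfd1l was not called without mutant replicate 2 at 24 hpf (adjusted p = 0.0537) or mutant replicate 1 at 48 hpf (0.0652).

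Shmt1 had the steepest stage change of the 8. Its mean went from 184 ± 10.8 CPM (SD, n = 4) to 45.01 ± 0.572 CPM (n = 3) in siblings, a log2 change of -2.03 ± 0.093 (adjusted p = 2.06e-11). In mutants it went from 177 ± 14.5 CPM (n = 4) to 66.02 ± 5.27 CPM (n = 3), a log2 change of -1.43 ± 0.090 (adjusted p = 1.50e-09). Its 48 hpf mean was thus 24.5% of the 24 hpf mean in siblings and 37.2% in mutants.

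Phgdh fell from 171 ± 12.3 CPM to 91.4 ± 7.64 CPM in siblings (-0.90 ± 0.091, adjusted p = 2.82e-07). In mutants it measured 149 ± 6.02 CPM at 24 hpf and 172 ± 15.1 CPM at 48 hpf, a log2 change of 0.20 ± 0.088 that was not called (adjusted p = 0.0778). All mutant libraries at 48 hpf lay above all at 24 hpf. How many genes showed that arrangement was not counted, and 43.2% of all genes were called in this comparison. Phgdh was called higher in 3 of 15 alternative fits, among them that without mutant replicate 2 at 48 hpf (0.0414). The mutant mean at 48 hpf was 100.5% of the sibling mean at 24 hpf. Asns fell from 67.6 ± 4.11 CPM to 38.5 ± 9.17 CPM in siblings (-0.81 ± 0.13, adjusted p = 5.56e-05). In mutants asns measured 73.4 ± 8.94 CPM at 24 hpf and 65.2 ± 2.42 CPM at 48 hpf (-0.17 ± 0.13, adjusted p = 0.304), with overlapping libraries.

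Psph fell in both genotypes, from 49.9 ± 3.33 to 18.04 ± 0.485 CPM in siblings (-1.47 ± 0.10, adjusted p = 2.88e-09) and from 44.6 ± 3.04 to 27.3 ± 3.08 CPM in mutants (-0.71 ± 0.099, adjusted p = 1.73e-05). Psat1 was the only serine synthesis gene of the 3 called higher in mutants in the main fit, from 105.8 ± 10.9 to 158 ± 23.3 CPM (0.58 ± 0.12, adjusted p = 7.80e-04). In siblings it measured 69.5 ± 4.79 and 59.6 ± 9.89 CPM, a change that was not called (-0.22 ± 0.12, adjusted p = 0.137). Without sibling replicate 2 at 48 hpf it was called lower (adjusted p = 0.0354).

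Among the mitochondrial genes, mthfd2 measured 65.4 ± 4.87 and 74.4 ± 7.76 CPM at 24 and 48 hpf in siblings (0.19 ± 0.096, adjusted p = 0.114). It was called higher in 4 of 15 alternative fits, among them that without sibling replicate 2 at 48 hpf (0.0377). In mutants it rose from 63.1 ± 4.23 to 87.6 ± 7.25 CPM (0.47 ± 0.095, adjusted p = 6.31e-04). Mthfd1l measured 176 ± 13.04 and 147 ± 22.7 CPM in siblings (-0.26 ± 0.13, adjusted p = 0.110). It was called lower in 2 of 15 alternative fits, among them that without sibling replicate 3 at 48 hpf (0.0211). In mutants it rose from 108 ± 18.9 to 145 ± 14.9 CPM (0.42 ± 0.13, adjusted p = 0.0150). Shmt2 changed least, with means from 73.5 to 84.2 CPM over the 4 groups.

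**Figure D2:**
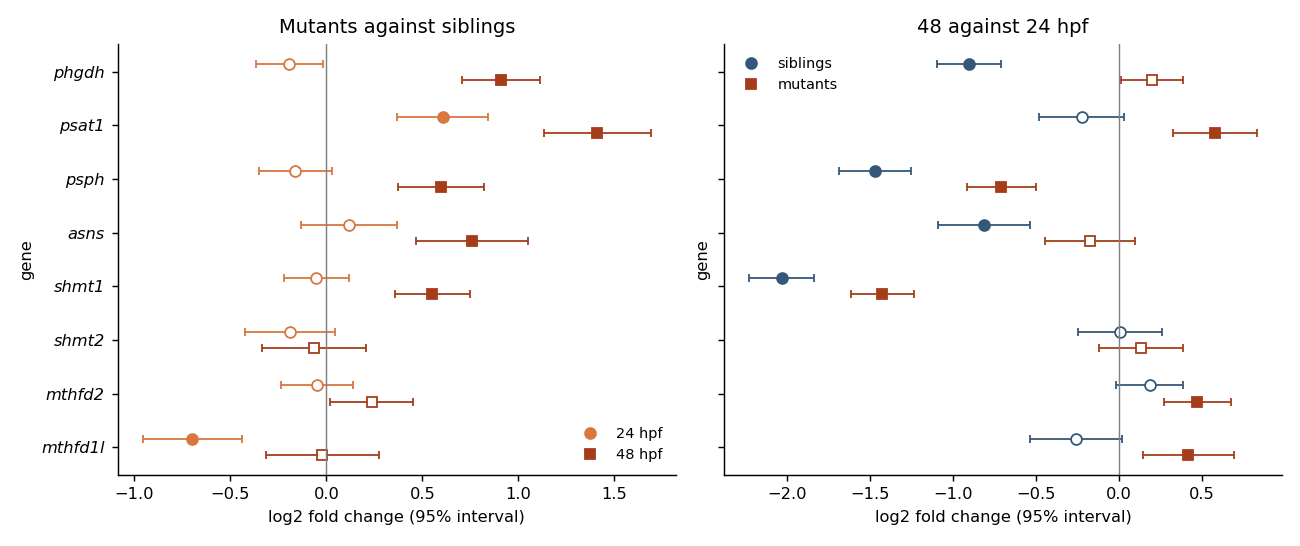
Fitted log2 fold changes of the 8 genes with 95% intervals, for mutants against siblings at each stage (left) and for 48 against 24 hpf in each genotype (right); filled marks passed an adjusted p under 0.05 and open marks did not. In the left panel phgdh lies at -0.19 at 24 hpf and 0.91 at 48 hpf, and mthfd1l at -0.70 and -0.021.

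Within each gene, the 4 groups took different orders of mean level. For phgdh, mutants at 48 hpf and siblings at 24 hpf overlapped at the top, mutants at 24 hpf came next and siblings at 48 hpf were lowest. For psat1 the order was mutants at 48 hpf, mutants at 24 hpf, then both sibling groups, which overlapped. For psph and shmt1 both 24 hpf groups overlapped at the top, followed by mutants and then siblings at 48 hpf. For asns the siblings at 48 hpf were lowest and the other 3 groups lay between 63.6 and 86.0 CPM. For mthfd1l the mutants at 24 hpf were lowest, with 131 CPM as their highest library beside 130.4 CPM as the lowest sibling library at 48 hpf. For mthfd2 the mutants at 48 hpf were highest and the other 3 groups overlapped. For shmt2 siblings at 24 hpf lay above mutants at 24 hpf in TMM-scaled CPM only, and both 48 hpf groups overlapped with both.

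Over the 14 libraries, the pair of these genes with the most similar pattern was phgdh and asns, with a root mean square difference of 0.21 between log2 CPM values centred on each gene's mean. Shmt2 and mthfd2 followed closely (0.22). Genes that vary little, such as these (SD 0.16 and 0.21), lie near each other by this measure. The least similar pair was shmt1 and mthfd2 (1.03). The serine synthesis genes were less alike: phgdh and psat1 differed by 0.45, phgdh and psph by 0.40 and psat1 and psph by 0.76. Among 14826 other genes, the closest to asns were the aminoacyl-tRNA synthetase genes tars (0.13) and iars (0.14), which charge tRNA with threonine and isoleucine, and bcap31 (0.14), of the endoplasmic reticulum membrane.

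For phgdh the closest were sec13 (0.13) and cope (0.14), which encode coat proteins of transport vesicles, and desma (0.14), a muscle desmin. For psat1 they were tmem154 (0.15), slc7a7 (0.19), an amino acid transporter subunit, and alg2 (0.19), a mannosyltransferase of glycan assembly. For psph they were eif6 (0.097), nat10 (0.0997) and eif4bb (0.10), genes of ribosome assembly, RNA acetylation and translation initiation. For shmt1 they were cdt1 (0.14), of replication licensing, bop1 (0.15), of ribosome assembly, and he1.1 (0.15), a hatching enzyme. For mthfd1l the closest was glud1a (0.14), a mitochondrial glutamate dehydrogenase, then c8a (0.17), of complement, and atp5pb (0.18), of ATP synthase. These distances also contain the stage difference that all libraries share.

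The Atf4 pathway regulators, a list of kinases, transcription factors and feedback genes around Atf4, held called genes in a single direction at each stage. Of 20 tested, 7 rose and 0 fell at 24 hpf (35.0% against 1.50% of all genes). At 48 hpf 11 rose and 0 fell (55.0% against 4.26% of all genes). At an unadjusted p under 0.05 0 were lower at 24 hpf and 1 at 48 hpf, and DESeq2 and limma-voom called 0 lower. The list's median log2 fold change was 0.36 at 24 hpf and 0.49 at 48 hpf.

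Ddit3, a stress transcription factor downstream of Atf4, measured 33.1, 38.8, 35.4 and 40.2 CPM in mutants and 18.8, 20.8, 15.3 and 13.8 CPM in siblings at 24 hpf. At 48 hpf it measured 139, 123 and 92.5 CPM in mutants and 21.5, 19.6 and 16.7 CPM in siblings. The log2 fold changes were 1.1004 ± 0.14 (adjusted p = 1.36e-04) and 2.62 ± 0.17 (adjusted p = 7.44e-08), and their difference was called (1.52 ± 0.22, adjusted p = 6.33e-04). Atf5a, a relative of Atf4, rose by 1.09 ± 0.12 at 24 hpf and 1.099 ± 0.13 at 48 hpf (adjusted p = 1.38e-05 and 3.76e-05).

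Both copies of the gene for Atf4 itself moved at 48 hpf. Atf4a measured 297 to 308 CPM in mutants and 232 to 243 CPM in siblings at 48 hpf (0.34 ± 0.078, adjusted p = 0.0121), and atf4b 263 to 277 CPM and 195 to 212 CPM (0.41 ± 0.090, adjusted p = 0.00992). With the libraries of that stage alone neither was called (adjusted p = 0.103 and 0.0591). At 24 hpf neither was called (-0.046 ± 0.068 and 0.075 ± 0.078, adjusted p = 0.836 and 0.733), and with library size only the value for atf4a turned to 0.059. Among the other regulators, eif2ak3, the Perk kinase of the endoplasmic reticulum, rose at both stages (0.92 ± 0.091 and 0.70 ± 0.11, adjusted p = 6.92e-06 and 4.06e-04). Sesn2, a leucine sensor in mammals, rose by 1.09 ± 0.14 and 1.34 ± 0.16 (adjusted p = 9.87e-05 and 3.66e-05), and atf5b rose by 1.36 ± 0.16 at 48 hpf (adjusted p = 3.28e-05). Atf5b was also called higher at 24 hpf, with a log2 fold change of 0.59.

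**Figure D3:**
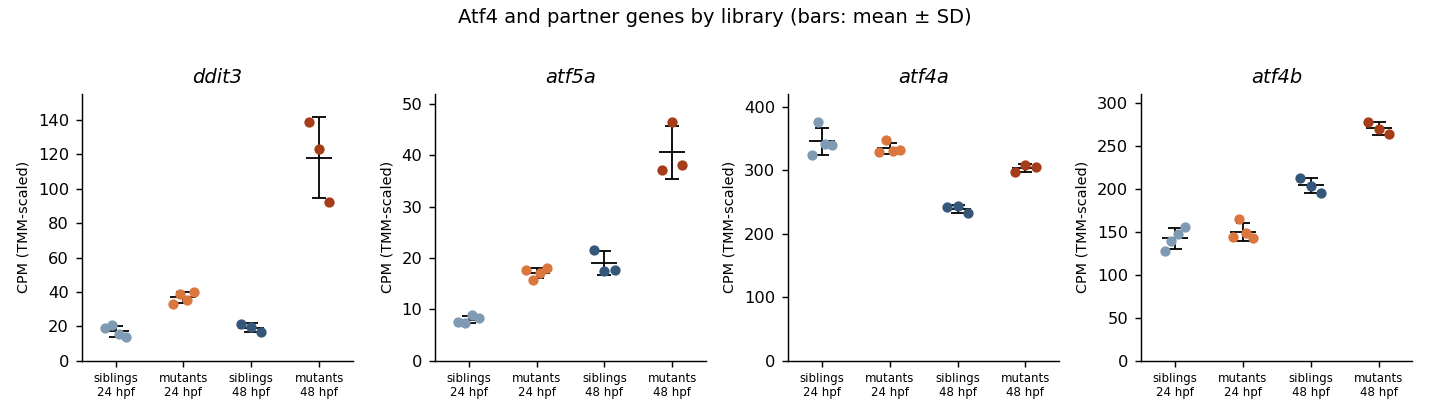
CPM (TMM-scaled, linear axis from 0) of ddit3, atf5a, atf4a and atf4b in all 14 libraries by group; points are libraries, horizontal marks are means and bars are ± SD. The mutants at 48 hpf span 92.5 to 139 CPM for ddit3, above the 16.7 to 21.5 CPM of their siblings.

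Most of the other folate enzymes and carriers were not called. Of 18 tested, 1 rose and 1 fell at 24 hpf (5.56% each), beside 1.50% and 2.33% of all genes. At 48 hpf 2 rose and 1 fell (11.1% and 5.56%), beside 4.26% and 1.80% of all genes. The list's medians were -0.074 at 24 hpf and 0.013 at 48 hpf. Aldh1l2, a mitochondrial enzyme that oxidizes formyl-folate, rose at both stages (0.58 ± 0.10 and 0.58 ± 0.12, adjusted p = 0.00271 and 0.00570). Mthfd1b and mthfd1a, copies of the cytosolic enzyme that takes up formate, were called lower at different stages. At the other stage each had a log2 fold change below 0 that was not called (mthfd1b -0.47 at 48 hpf, mthfd1a -0.50 at 24 hpf). Mthfd1b went from 281 ± 46.5 CPM in siblings to 101.3 ± 12.0 CPM in mutants at 24 hpf (-1.47 ± 0.12, adjusted p = 9.75e-07).

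Mthfd1a, at 2.28 ± 1.62 CPM in 24 hpf siblings, measured 34.9 ± 4.40 CPM in siblings and 8.80 ± 3.53 CPM in mutants at 48 hpf (-1.99 ± 0.44, adjusted p = 0.00934). That call ended without mutant replicate 1 (0.0564) or 2 (0.0569). Reads shared by the mthfd1 copies could have been counted for either. Without mutant replicate 1 at 48 hpf 1 of the 18 was called.

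A further list held the glycine cleavage system and enzymes acting on serine, glycine, threonine products, sarcosine and dimethylglycine. Of 19 tested, 1 rose and 4 fell at 24 hpf, beside 1.50% and 2.33% of all genes, and 3 were called when either sibling replicate 2 or mutant replicate 4 was left out. At 48 hpf 4 rose and 2 fell, beside 4.26% and 1.80% of all genes. Cth, which makes cysteine from serine-derived cystathionine, rose by 0.96 ± 0.099 at 24 hpf and 1.24 ± 0.12 at 48 hpf (adjusted p = 1.14e-05 and 4.22e-06). Sardh and dmgdh, mitochondrial enzymes that hand one-carbon units from sarcosine and dimethylglycine to folate, fell at both stages. For dmgdh the log2 fold changes were -1.87 ± 0.14 and -1.07 ± 0.16 (adjusted p = 2.50e-07 and 3.02e-04), and for sardh at 48 hpf -2.77 ± 0.25 (adjusted p = 2.45e-06). Gcat, which breaks down the threonine product to glycine, fell at 24 hpf (-0.65 ± 0.14, adjusted p = 0.0147), but not without sibling replicate 2 (0.0540) or mutant replicate 4 (0.0644). Tdh, threonine dehydrogenase, rose at 48 hpf (0.85 ± 0.12, adjusted p = 1.94e-04).

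In purine and thymidylate synthesis, which consumes formate, 7 of 12 tested genes fell and 1 rose at 24 hpf (58.3% lower against 2.33% of all genes). The list's median log2 fold change was -0.46. Paics, gart and pfas, enzymes of purine ring assembly, fell by 1.39, 0.97 and 0.96 on the log2 scale (SE 0.19, 0.17 and 0.16, adjusted p = 2.29e-04, 0.00215 and 0.00164). Impdh2, of guanine nucleotide synthesis, fell by 0.45 (SE 0.075, adjusted p = 0.00149). Without sibling replicate 3 at 24 hpf 5 fell and 0 rose. Sums of the cell cycle, yolk syncytial layer and epidermis markers were lower in the same mutants, as given above, the epidermis sum only with the TMM factors. Those of neurons, muscle, erythrocytes and lens overlapped between genotypes at this stage, and the part of either was not tested.

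At 48 hpf edgeR called 0 of the 12 purine and thymidylate genes in either direction and limma-voom 0, whereas DESeq2 called 1 lower. Over all genes tested edgeR called 6.06% at 48 hpf. At an unadjusted p under 0.05 1 was higher and 1 lower, and the median was 0.21. The change between stages was called above 0 for 6 of the 12 and below 0 for 1, beside 2.43% and 0.737% of all genes. Without both libraries of low mitochondrial share 2 were called higher and 1 lower at 48 hpf, and without sibling replicate 3 alone 1 was called higher.

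In the methionine cycle, 1 of 11 genes fell and 0 rose at 24 hpf, beside 2.33% and 1.50% of all genes. At an unadjusted p under 0.05 0 were higher, and DESeq2 and limma-voom called 0 higher. The gene that fell was bhmt, which remethylates homocysteine (-0.93 ± 0.14, adjusted p = 8.05e-04). At 48 hpf 2 rose and edgeR called 0 lower, beside 4.26% and 1.80% of all genes. There 2 were lower at an unadjusted p under 0.05, and DESeq2 and limma-voom called 1 lower. Mat2ab, which makes S-adenosylmethionine, rose from 14.6 ± 3.14 CPM in siblings to 43.7 ± 3.46 CPM in mutants (1.58 ± 0.15, adjusted p = 3.53e-06). The other was zgc:158222, an ahcyl2 relative by its RefSeq synonym (0.55 ± 0.14, adjusted p = 0.0263). Its call ended without sibling replicate 1 or 3 or mutant replicate 1 or 3 (0.0586 to 0.105).

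A list around other non-essential amino acids held synthesis enzymes and also glutaminases, glutamate dehydrogenases and pck2. Of its 20 tested genes 2 rose and 3 fell at 24 hpf, beside 1.50% and 2.33% of all genes. At 48 hpf 3 rose (gls2b, pck2 and glud1b) and 1 fell, beside 4.26% and 1.80%. Pck2, the mitochondrial enzyme that makes phosphoenolpyruvate, fell at 24 hpf (-0.95 ± 0.12, adjusted p = 1.46e-04) and rose at 48 hpf (0.94 ± 0.14, adjusted p = 4.64e-04). The difference between its mutant effects, 1.89 ± 0.19, was called (adjusted p = 2.66e-05). At 24 hpf pycr1a, of proline synthesis, rose by 1.07 ± 0.15 (adjusted p = 3.71e-04), whereas glula, a glutamine synthetase, and glud1a fell by 1.21 and 0.76 (adjusted p = 7.33e-06 and 1.93e-05).

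At 48 hpf the glutaminase gene gls2b rose from 0.713 ± 0.168 to 6.09 ± 0.561 CPM (3.08 ± 0.42, adjusted p = 1.45e-04). Gls2b was also called higher at 24 hpf, with a log2 fold change of 1.40. The related glsa fell by 0.46 at 48 hpf (adjusted p = 0.0104), a call lost on leaving out sibling replicate 2 (0.0584), mutant replicate 1 (0.0506) or mutant replicate 3 (0.0641). Glud1b rose by 0.31 ± 0.089 (adjusted p = 0.0479), a call that ended without any 1 of the 6 libraries of the stage (0.0595 to 0.121). Without sibling replicate 2, mutant replicate 1 or mutant replicate 3, 2 of the 20 were called at 48 hpf.

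**Figure D4:**
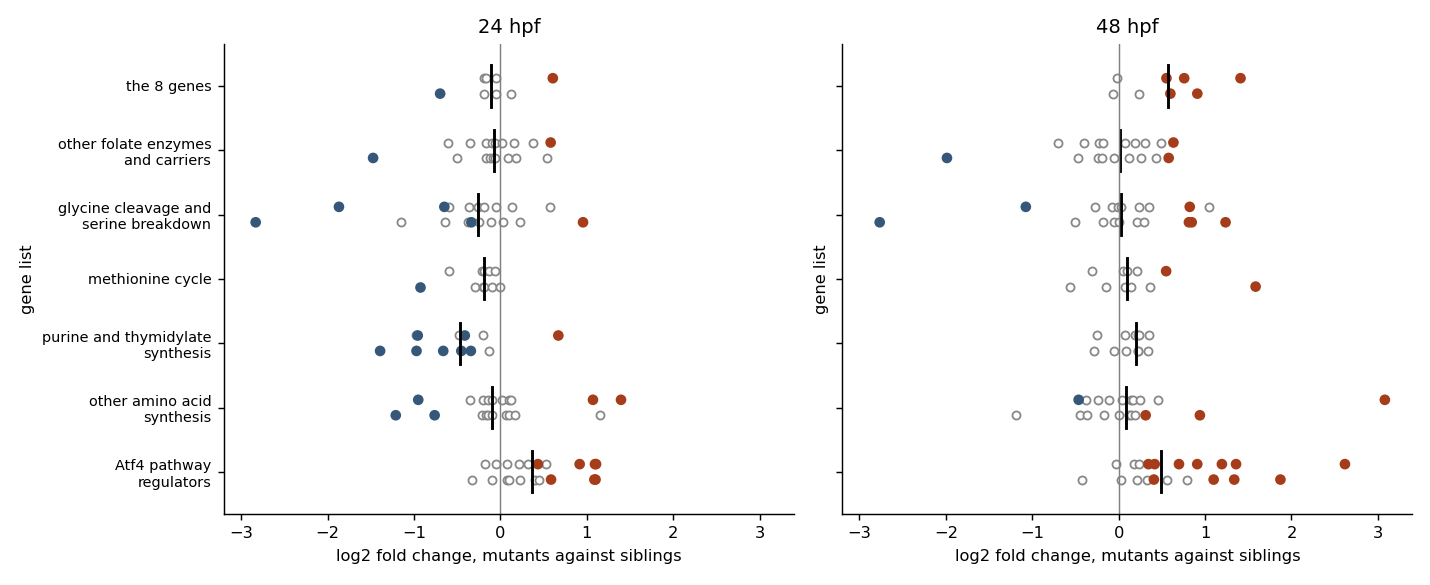
Log2 fold changes of mutants against siblings at 24 hpf (left) and 48 hpf (right) for the 8 genes and 6 lists of related genes; each circle is a tested gene, filled where the adjusted p was under 0.05 (red higher, blue lower), and black lines are medians. The median of purine and thymidylate synthesis lies at -0.46 at 24 hpf and 0.21 at 48 hpf, and that of the 8 genes at -0.11 and 0.58.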

How the data were processed

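RNA of 14 zebrafish embryo samples was sequenced after TRIzol extraction and NEBNext Ultra library preparation from 1 µg of total RNA, per the labels' protocols. The authors deposited raw read counts per gene. Per the submitters' processing notes the build was GRCz11, and the tools were featureCounts 2.0.6 and STAR 2.7.10b, with Trim Galore 0.6.10 and FastQC 0.12.1. Not given in the sources used here are the annotation and how strand and reads with several matches were handled.

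From these counts, edgeR 4.0.16 in R 4.3.3 fitted the 4 groups together with TMM factors and its quasi-likelihood test, with 10 residual degrees of freedom. The filter (filterByExpr, minimum count 10) kept 24424 of 36109 genes, and p-values were adjusted over these by the Benjamini-Hochberg method. A gene was called at an adjusted p under 0.05. Counts at an unadjusted p under 0.05 have no share of all genes beside them, and more genes pass that threshold than are called. Errors of log2 fold changes were computed from the fold change and its F statistic. CPM values were TMM-scaled. The procedure was also run on simulated data, for mutants against siblings within each stage only. There the libraries were drawn independently, with no stage change in siblings. The difference between stages and the stage changes were not simulated.

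The genes and the lists of related genes were chosen with earlier results of these data known. Named were the 8 genes and mttp, always atf4a, atf4b, ddit3 and atf5a, up to 4 called genes of smallest p per list and stage, and the 3 most similar genes (root mean square difference of centred log2 CPM, prior count 2) per gene called between genotypes; nipsnap2 was added for its overlap. A gene that this rule names among the folate enzymes is not reported here. Of 183 listed names 174 were found, 3 by a RefSeq synonym. DESeq2 1.42.0, limma-voom (limma 3.58.1), other scalings, other filters, the replicate number as a block, fits within a stage or genotype and leaving out libraries were alternatives. Those for the related lists and for member changes between stages were added after the data were seen. No sequence is shown, and levels were not compared between genes, since transcript lengths were not used here.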

Additional observations from a re-analysis of the deposited data

Results flagged for a closer look

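Psph measured 54.9 CPM in sibling replicate 2 at 24 hpf, beside 47.9 to 48.6 CPM in the other 3 siblings. In the same library, which had a low mitochondrial share, paics measured 669.7 CPM beside 457 to 492 CPM. Gart measured 264 CPM in mutant replicate 1 at 24 hpf, beside 251 to 253 CPM in the other mutants. These 3 stood out among 78 groups of 4 libraries over 39 genes by Dixon's test at the 95% level, which chance passes in about 1 of 20 groups.

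The mutant effect differed between stages, by a called interaction, for 4 of the 8 genes, beside 3.17% of all genes tested. On the log2 scale, 48 minus 24 hpf, the difference was 1.104 for phgdh, 0.80 for psat1, 0.76 for psph and 0.60 for shmt1. Among Atf4 regulators it was 1.52 for ddit3 and 0.39 for atf4a, whose call (adjusted p = 0.04996) ended in 17 of 22 alternatives, with adjusted p up to 0.148. Among folate, glycine and methionine genes it was 1.01 for mthfd1b, 0.79 for dmgdh, 0.94 for gcat, 0.90 for tdh, 1.71 for mat2ab and 0.75 for zgc:158222. The calls ended in 14 of 22 alternatives for dmgdh (adjusted p up to 0.118), in 13 for zgc:158222 (0.0912) and in 4 for gcat (0.0678). Among purine genes it was 1.74 for paics, 1.18 for pfas, 1.20 for gart and 0.52 for impdh2, whose call ended without mutant replicate 3 (0.0607) or 4 (0.0602) at 24 hpf. Among genes of other amino acids it was 1.89 for pck2, 0.77 for glula, 0.77 for glud1a and -0.56 for glsa. The calls ended in 7 of 22 alternatives for glsa (adjusted p up to 0.0996) and in 5 for glula (0.0787).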

How the results depend on the processing

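The count of the 8 genes called was 2 at 24 hpf under every alternative run. At 48 hpf it was 5 under every alternative but the fit within the stage with the replicate block, which gave 4 (psph, adjusted p = 0.0557). For the difference between stages it ranged from 3 to 6, and for each stage change from 4 to 6. Of 688 recomputed changes of the 8 genes and 1068 of other named genes, 646 and 971 kept direction and side of the threshold, 6 and 95 lost the call, 20 and 0 gained it and 16 and 2 turned direction. The turned values were small and not called. At 24 hpf library size only gave 0.052 for shmt1, 0.055 for mthfd2 and 0.059 for atf4a, and leaving out both libraries of low mitochondrial share gave 0.0098 for mthfd2 and 0.014 for atf4a. At 48 hpf mthfd1l was 0.016 with library size only, and without both those libraries shmt2 was 0.087 and mthfd1l 0.083. Without both, shmt2 between stages in siblings was -0.076. Leaving out 1 library, the range was -0.092 to 0.0049 for shmt1 at 24 hpf, -0.16 to 0.12 for shmt2 and -0.099 to 0.11 for mthfd1l at 48 hpf, and -0.17 to 0.105 for shmt2 between stages in siblings. The cause was not tested.

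Over all genes, 934 were called at 24 hpf, 1635 by DESeq2, 2580 within the stage with the block and 524 to 818 without 1 library. At 48 hpf 1480 were called, 909 within the stage and 946 to 1446 without 1 library. For the difference 774 were called, 1380 by DESeq2, 1319 without both libraries and 472 to 1428 without 1 library. Library size only moved the share of higher calls from 39.2% to 63.7% at 24 hpf and from 76.7% to 66.7% for the difference.

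Same-numbered mutants and siblings deviated together by correlations of 0.068 to 0.306, and every library correlated best with its own number. Not all were over the cutoff of 0.1 used here, so the main fit did not take the numbers as pairs. The p-values of the main fit therefore count any spread that same-numbered libraries share as spread between libraries, which the block takes out. With the replicate block 2, 5 and 6 of the 8 genes were called at 24 hpf, at 48 hpf and for the difference, and 1371, 1925 and 1187 of all genes.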
